A study of Mus musculus with 6 samples.

Results

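The genes of the mitochondrial respiratory chain, of the carriers of the inner membrane and of protein import into mitochondria were followed in RNA-seq of hearts of diabetic mice given vehicle or FGF1ΔHBS, a variant of fibroblast growth factor 1 altered in its heparin-binding sites. Members were chosen by a rule on gene symbols, set with earlier results of these data known. The symbols searched were those of the mitochondrially encoded subunits (mt-), nuclear-encoded genes of complexes I to V (Nduf, Sdh, Uqc, Cox and Atp5), ubiquinone synthesis (Coq), electron transfer flavoprotein (Etf), carriers (Slc25a and Ucp), translocases (Timm and Tomm), mitochondrial isocitrate dehydrogenases (Idh), the CHCHD family and the calcium gatekeepers (Micu), with pseudogenes left out. No Tomm or Idh gene was among those found. The rule found 47 of the 4132 genes in the table, of which 46 entered the test, as did 2041 genes in all whose level averaged 1 FPKM or more over the 6 libraries. FPKM, fragments per kilobase of transcript scaled to the mapped fragments of the library, takes out transcript length, so levels can be set side by side between genes. By role they were 10 genes of complex I, 1 of complex II, 3 of complex III, 4 of complex IV, 4 of complex V, 5 of ubiquinone synthesis and electron transfer, 12 carriers, 4 import genes, 3 CHCHD genes and 1 calcium gatekeeper. Other well-known members of these families, among them Uqcrc1, Cox4i1, Ndufv1, Etfb, Ucp2 and Slc25a4, were not analysed here. The chain is thus seen only in part, and all genes, below, means the 2041 tested and not the whole transcriptome.

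All 6 mice were db/db animals, which lack a working leptin receptor (genotype lepr-/-) and become obese and diabetic, and all were 26 weeks old. From 10 weeks of age, for 16 weeks, 3 mice received FGF1ΔHBS intraperitoneally at 0.5 mg/kg every other day and 3 received the same amount of saline. No lean or untreated heart was analysed here, so every difference below is between treated and saline-treated diabetic hearts.

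The respiratory chain takes electrons from NADH through complex I, and from succinate through complex II, to ubiquinone, and passes them through complex III and cytochrome c to oxygen at complex IV. The proton gradient this builds drives ATP synthesis at complex V, and the heart, which works without pause, depends on it for nearly all of its ATP. Electrons from the oxidation of fatty acids, the main fuel of the adult heart, also enter at ubiquinone, by way of the electron transfer flavoprotein. A few core subunits are encoded by the mitochondrial genome, and all other proteins are encoded in the nucleus and imported, while the SLC25 carriers move phosphate, nucleotides and metabolites over the inner membrane.

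Vehicle replicate 2 stood apart from the other libraries. Its FPKM summed to 152340, against 215805 to 232837 in the other 5. In it, mt-Co2 and its nuclear copy Gm28661 were listed at 0, where each was at 29919 to 36238 FPKM in the others. Its sum over nuclear genes above 0 in every library was 112205 FPKM, within the 109665 to 123155 FPKM of the others. The same library had 27.4 FPKM of Sln and 431 FPKM of Nppa, transcripts abundant in the atria, against at most 0.24 and 170 FPKM in any other library. Cardiomyocyte markers were present in every library, the summed level of the 3 listed markers in the table (Tnnt2, Actc1 and Nppa) running from 8708 to 10480 FPKM with vehicle and from 8925 to 10382 FPKM with FGF1ΔHBS. The fibroblast marker Dcn, 1 of 6 listed and the only such gene analysed here, was at 154 to 288 FPKM with vehicle and at 368 to 431 FPKM with FGF1ΔHBS. Of the 2 smooth muscle and pericyte markers analysed, of 5 listed, Acta2 was at 10.3 to 14.1 and at 17.5 to 27.3 FPKM and Pdgfrb at 8.34 to 13.5 and at 8.84 to 10.3 FPKM. Hbb-bt, a red cell globin, was at 192 to 397 and at 118 to 204 FPKM, and none of the markers listed for macrophages or skeletal muscle was analysed here. The endothelial gene Tie1 was at 11.6 to 23.1 and at 11.4 to 16.4 FPKM. Adipoq of white fat, Dio2 of brown fat and Slc12a1 of the kidney were near 0, at no more than 1.21, 0.893 and 0.844 FPKM in any library. In whole tissue, fewer cells of a type and less RNA per cell cannot be told apart, and the part of these markers in the results below was not tested.

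Most of the members of complexes I to V were higher with FGF1ΔHBS by a modest amount. None of the 46 members tested passed the threshold of an adjusted p of 0.05, and the lowest was 0.116. The test was limma on log2(FPKM + 1), with Benjamini-Hochberg adjustment over all 2041 genes. Over all genes, 2 passed, which is 0.098%. At an unadjusted p under 0.05 there were 14 members, 30.4% of those tested, beside 17.1% of all genes. Of these, 12 were higher (26.1% of members, beside 7.1% of all genes) and 2 were lower (4.35%, beside 10.0%). The 3 treated values lay above all 3 vehicle values in 16 members, 34.8%, where 10.7% of all genes did so, and below them in 6 members, 13%, where 13.6% of all genes did. The median log2 fold change was 0.12 over the members and -0.021 over all genes. Without vehicle replicate 2, 9 members were at an unadjusted p under 0.05, of which 8 were higher, among 270 such genes in all. There were 9 members among 281 such genes without FGF1ΔHBS replicate 1 and 6 among 231 without FGF1ΔHBS replicate 2. Scaling the libraries to the summed FPKM of nuclear genes, a sum that includes the mt-Co1 copy Gm29216, left 9 members, 6 higher and 3 lower. Over all genes it left 95 higher and 261 lower in place of 145 and 204. Quantile normalization, which gives each library the same distribution, left 7 of the 46 members, 5 higher and 2 lower. Over all 2041 genes it left 353, 180 higher and 173 lower. Taking both directions together, the share of members was then no larger than that of all genes. Quantile normalization without mt-Co2 and Gm28661, chosen after seeing the data, left 9 members, 7 higher and 2 lower. Over the 2039 genes of that fit it left 363, 190 higher and 173 lower.

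**Figure D1:**
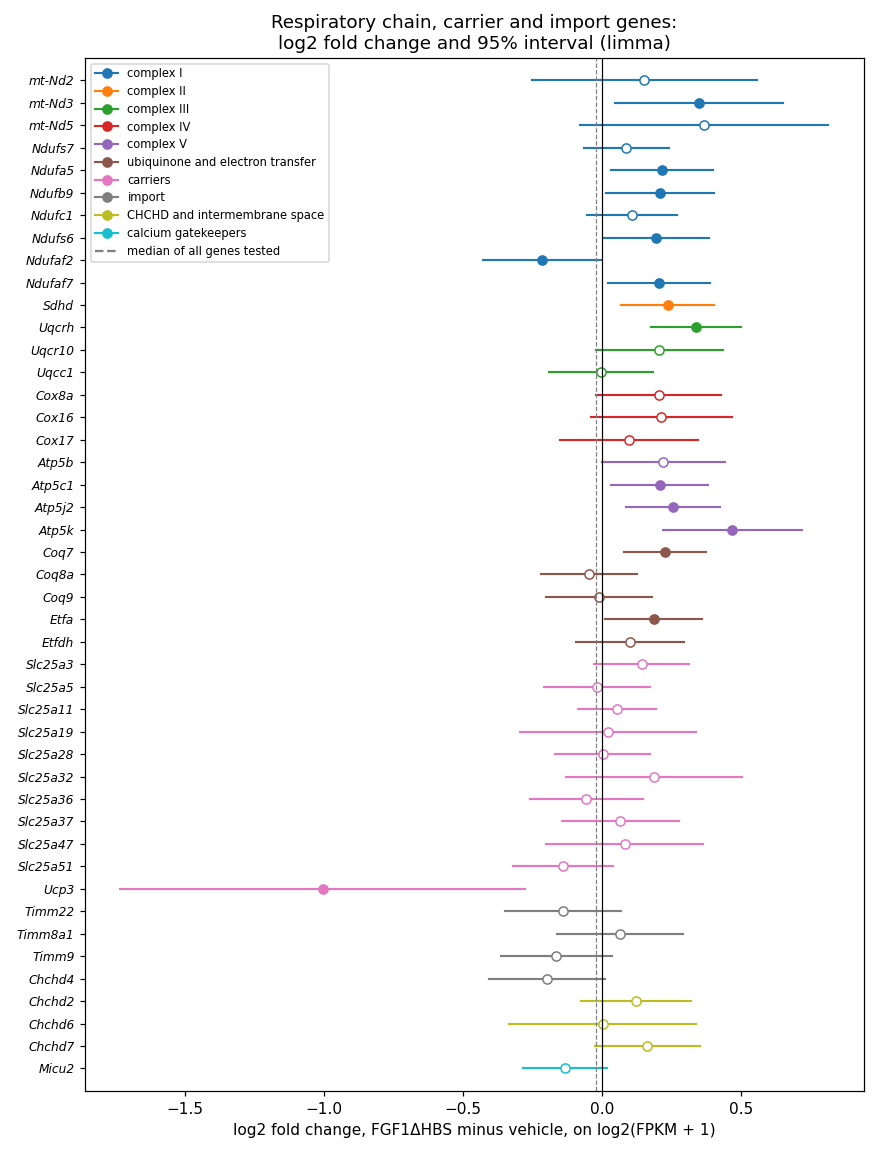
Log2 fold change (FGF1ΔHBS minus vehicle, on log2(FPKM + 1)) of the 45 tested genes other than mt-Co2, coloured by role, with 95% intervals from limma over 3 mice a group. Filled points have an unadjusted p under 0.05 and the dashed line is the median of all genes tested. The genes of complexes I to V lie mostly to the right of 0, and Ucp3 lies farthest to the left, at -1.0.

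The 13 nuclear-encoded subunits of complexes I to V carried most of this pattern. All 13 had positive log2 fold changes, from 0.088 in Ndufs7 to 0.47 in Atp5k, with a median of 0.21. After quantile normalization 10 were positive, or all 13 with mt-Co2 and Gm28661, at 0 in vehicle replicate 2, left out. Of them, 8 were at an unadjusted p under 0.05 (61.5%, beside 7.1% of all genes that were higher at that p). In 9 of the 13 (69.2%) every treated value lay above every vehicle value, as in 10.7% of all genes. Their summed level was 7482, 6887 and 7030 FPKM in the vehicle hearts and 8411, 8453 and 8121 FPKM in the treated hearts. That is 1.17 times higher with no overlap (two-sided exact permutation p = 0.1, the smallest that 3 mice against 3 allow). This sum was not planned and is of genes whose values were known, so its p adds no support. Atp5b alone, at 2703 to 3397 FPKM, was a large part of it. Vehicle replicate 2 had the lowest value in 11 of the 13. Without it, the 13 were still all positive, with a median of 0.18 and 5 at an unadjusted p under 0.05, and there were also 5 without vehicle replicate 3 and 4 without either FGF1ΔHBS replicate 1 or 2. Of all 2041 genes, 130, 166, 107 and 109 were higher at that p in those fits, in the same order. Quantile normalization left 3 at that p, with a median of 0.099, and nuclear total scaling left 4, with a median of 0.17. Of all 2041 genes, 180 and 95 were higher at that p under these scalings. Quantile normalization without mt-Co2 and Gm28661, chosen after seeing the data, left 5 at that p, with a median of 0.125. Of the 2039 genes in that fit, 190 were higher at that p. The other 32 members tested, mt-Co2 set aside, had a median of 0.060. At an unadjusted p under 0.05, 4 were higher (12.5%, beside 7.1% of all genes) and 2 lower (6.25%, beside 10.0%). The division into subunits and other members was made with the values known and is a description.

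**Figure D2:**
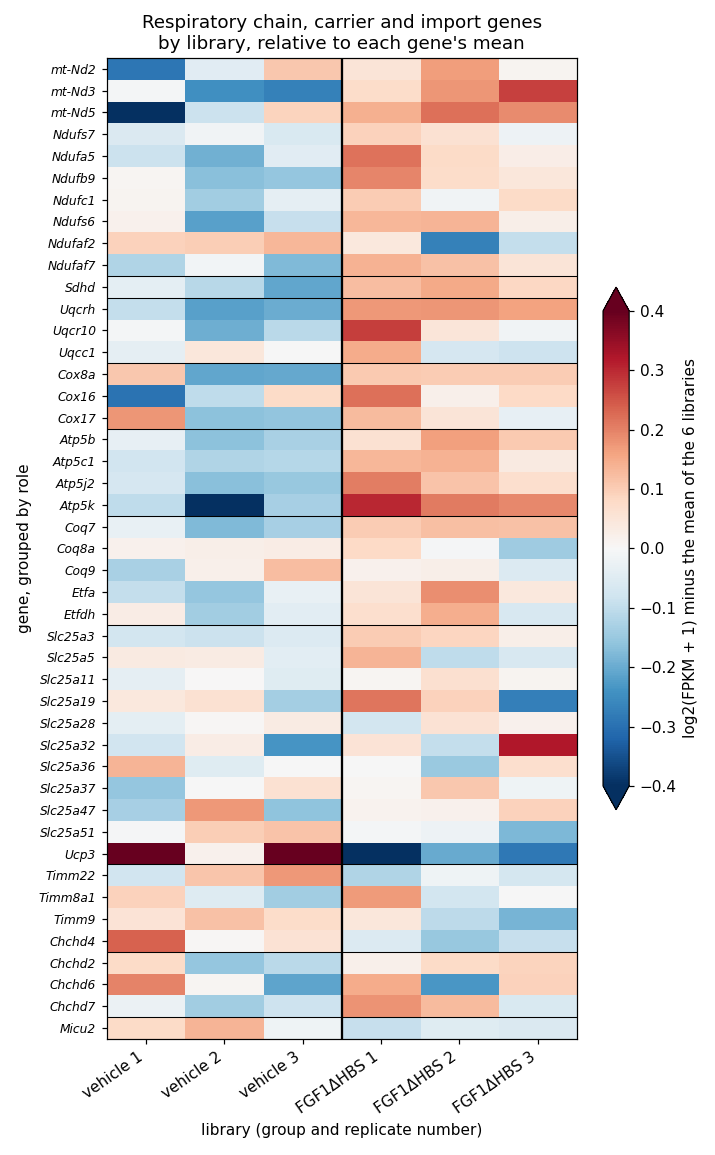
Each cell shows a gene's log2(FPKM + 1) in 1 library minus the mean of the 6 libraries, with colours ending at -0.4 and 0.4; rows are the 45 tested genes other than mt-Co2, grouped by role, and the vertical line parts vehicle from FGF1ΔHBS. The subunit rows are mostly blue on the left and red on the right, while carriers and import genes show no such common direction.

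Complex I, the NADH dehydrogenase, had 10 members, and 5 were higher (50.0%, beside 7.1% of all genes) and 1 lower (10.0%, as over all genes) at an unadjusted p under 0.05. Ndufa5, an accessory subunit, was at 261, 242 and 268 FPKM with vehicle and at 323, 293 and 282 FPKM with FGF1ΔHBS. All 3 treated values were the higher ones, and the log2 fold change was 0.22 (SE 0.078, adjusted p = 0.23). The accessory subunits Ndufb9 and Ndufs6, named after their values were seen, were 15.6% and 14.3% higher without overlap (adjusted p = 0.268 and 0.282). The nearest values of Ndufs6 differ by only 0.676 FPKM. The deposited loci of Ndufb9 and Ndufs6 also overlap Gm49356 and Mrpl36, so their values may hold reads of those genes. The iron-sulfur subunit Ndufs7 and the accessory subunit Ndufc1 were 6.37% and 7.86% higher, with overlapping groups.

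Assembly factors build the complex without staying in it, and 2 of complex I were members. Ndufaf2, which acts late in assembly, was at 20.6, 20.7 and 21.2 FPKM with vehicle and at 19.9, 15.8 and 18.0 FPKM with FGF1ΔHBS. Its log2 fold change was -0.22 (SE 0.090, adjusted p = 0.282), with no overlap. Ndufaf7, a methyltransferase that acts early in assembly, was 17.1% higher without overlap (adjusted p = 0.245). Over the 5 assembly factors of complexes I, III and IV, 1 was higher and 1 lower at an unadjusted p under 0.05, where 7.1% and 10.0% of all genes were, and Uqcc1, of complex III, had a log2 fold change of -0.0035 with a 95% interval from -0.19 to 0.18.

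The mitochondrially encoded subunits mt-Nd2, mt-Nd3 and mt-Nd5 belong to the membrane arm of complex I, which pumps protons. The level of mt-Nd2, on the mitochondrial chromosome from 3914 to 4951 (GRCm38), was 17845, 21147 and 23491 FPKM with vehicle and 22627, 24493 and 21967 FPKM with FGF1ΔHBS. These groups overlapped, and the log2 fold change was 0.15 (SE 0.17, adjusted p = 0.698). For mt-Nd3 the vehicle values were 6149, 5214 and 5120 FPKM and the treated values 6495, 6979 and 7472 FPKM, so all treated hearts were above all vehicle hearts (log2 fold change 0.35, SE 0.13, adjusted p = 0.23).

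For mt-Nd5 the levels were 8453, 11670 and 13171 FPKM with vehicle and 13690, 14437 and 14127 FPKM with treatment, again without overlap (log2 fold change 0.37, SE 0.19, adjusted p = 0.375). The deposited locus of mt-Nd5 runs past its annotated end and over mt-Nd6, which lies on the other strand, so reads of both may be in its value. Vehicle replicate 1 was the lowest library in mt-Nd2 and mt-Nd5 and the highest of the vehicle hearts in mt-Nd3, so the 3 transcripts did not order the vehicle hearts alike.

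Summed, the 3 transcripts were at 32447, 38031 and 41782 FPKM with vehicle and at 42812, 45908 and 43566 FPKM with FGF1ΔHBS. The treated mean was 1.18 times the vehicle mean, with no overlap (two-sided exact permutation p = 0.1, the smallest possible). The same sum was also taken as a percentage of the summed FPKM of nuclear genes above 0 in every library. It was 26.3, 33.9 and 38.1 with vehicle and 34.9, 39.6 and 37.2 with treatment, which overlap (exact permutation p = 0.3). That nuclear sum, 109665 to 123155 FPKM, includes Gm29216, a nuclear copy of part of mt-Co1, at 46137 to 58234 FPKM. Reads of mt-Co1 may thus be in it. After quantile normalization the log2 fold changes of mt-Nd2, mt-Nd3 and mt-Nd5 were -0.24, -0.30 and -0.44, opposite in sign. With mt-Co2 and Gm28661, at 0 in vehicle replicate 2, left out, they were 0, 0.12 and 0. That scaling sets values by rank within a library, so it cannot decide the direction of these highly ranked genes. Relative to the summed nuclear-encoded subunits the ratio of the group means was 1.01 (exact permutation p = 1).

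Complex II, succinate dehydrogenase, which belongs to both the chain and the citric acid cycle, was represented by its membrane anchor Sdhd (chromosome 9, 50596357 to 50603812). Sdhd was at 371, 353 and 330 FPKM with vehicle and at 415, 423 and 404 FPKM with FGF1ΔHBS. Every treated heart was above every vehicle heart, by a log2 fold change of 0.24 (SE 0.071, adjusted p = 0.154).

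In complex III, which passes electrons from ubiquinol to cytochrome c, the hinge subunit Uqcrh (chromosome 4, 116066965 to 116075071) had the smallest p of all members. Its level was 538, 494 and 501 FPKM with vehicle and 648, 650 and 642 FPKM with FGF1ΔHBS. The treated hearts lay within 7.79 FPKM of each other, and the lowest of them was 104 FPKM above the highest vehicle heart, with a log2 fold change of 0.34 (SE 0.069, adjusted p = 0.116). Uqcr10, a small subunit named after its values were seen, was 15.7% higher with overlap (adjusted p = 0.337).

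In complex IV, cytochrome c oxidase, Cox8a, the ubiquitous form of a small subunit, was at 151, 121 and 122 FPKM with vehicle and at 151, 151 and 151 FPKM with treatment. Vehicle replicate 1 was level with the treated hearts and the other vehicle hearts were below them (log2 fold change 0.20, adjusted p = 0.331). The assembly factors Cox16 and Cox17, a copper chaperone, had log2 fold changes of 0.21 and 0.097 with overlapping groups. The deposited locus of Cox16 runs 72497 bases past its annotation and over Synj2bp and Adam4, and that of Cox17 runs 25453 bases past its annotation and over Popdc2, so both values may hold reads of neighbours.

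The core subunit mt-Co2, which holds the copper site that takes electrons from cytochrome c, was at 34716, 0 and 29919 FPKM with vehicle and at 31486, 32156 and 33111 FPKM with FGF1ΔHBS. A 0 in a library where mt-Nd2 was at 21147 FPKM, is a value the table lists and not a level, and no fold change is given over all 6 libraries. Without vehicle replicate 2, the treated mean was 0.998 times the vehicle mean (log2 fold change 0.00072, SE 0.11, adjusted p = 0.999). Gm28661, an unprocessed pseudogene on chromosome 1 from 24614885 to 24615565 on the minus strand, was at 36238, 0 and 31759 FPKM with vehicle and at 33390, 34135 and 34718 FPKM with treatment, and so was at 0 in the same library.

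All 681 bases of Gm28661 are identical to mt-Co2, which is 684 bases long, so reads of one cannot be told from reads of the other. The first 60 bases of each are shown for this reason, from GRCm38, in the direction of transcription; they lie at chrM:7013-7072 (plus strand) and chr1:24615506-24615565 (minus strand).
mt-Co2: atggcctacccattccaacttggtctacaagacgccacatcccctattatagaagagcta
Gm28661: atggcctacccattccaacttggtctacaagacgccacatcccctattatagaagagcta
Gm29216, the neighbouring copy of part of mt-Co1, differs from it at 6 of 492 bases and was at 58234, 46138 and 46137 FPKM with vehicle and at 54153, 50408 and 51720 FPKM with treatment. Those groups overlapped, and vehicle replicate 2 was level with vehicle replicate 3.

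**Figure D3:**
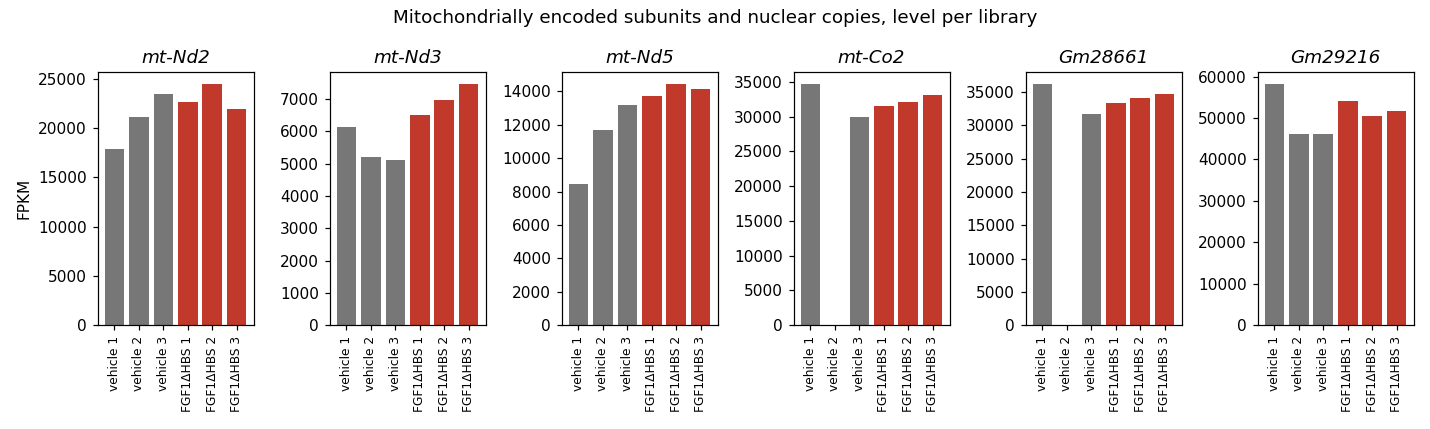
Level per library, in FPKM on axes from 0, of the 4 mitochondrially encoded subunits and of the nuclear copies Gm28661 and Gm29216, with vehicle in grey and FGF1ΔHBS in red; each panel has its own scale. mt-Co2 and Gm28661 are at 0 in vehicle replicate 2 only, where mt-Nd2, mt-Nd3 and mt-Nd5 are present.

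In complex V, the ATP synthase, all 4 members were higher without overlap between the groups (10.7% of all genes were), and 3 were higher at an unadjusted p under 0.05 (75.0%, beside 7.1%). Atp5k, the e subunit, which sits in the membrane where synthase dimers form, had the largest positive fold change of the nuclear-encoded members (chromosome 5, 108433244 to 108434448). It was at 110, 85.1 and 108 FPKM with vehicle and at 146, 137 and 135 FPKM with FGF1ΔHBS, with a log2 fold change of 0.47 (SE 0.11, adjusted p = 0.116). Vehicle replicate 2 was the lowest of the 6, and the other vehicle hearts were also below every treated heart.

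Atp5b, the catalytic beta subunit and the most abundant nuclear-encoded member, was at 2961, 2703 and 2768 FPKM with vehicle and at 3163, 3397 and 3262 FPKM with treatment (log2 fold change 0.22, SE 0.094, adjusted p = 0.289). Atp5c1, the gamma subunit of the central stalk, was at 1011, 981 and 986 FPKM and at 1171, 1176 and 1095 FPKM (log2 fold change 0.21, SE 0.074, adjusted p = 0.223). Atp5j2, the membrane subunit f, was at 448, 419 and 423 FPKM and at 542, 509 and 492 FPKM (log2 fold change 0.26, SE 0.072, adjusted p = 0.147). The means of Atp5b, Atp5c1 and Atp5j2 were thus 16.5%, 15.5% and 19.6% higher in the treated hearts and that of Atp5k was 37.9% higher. After quantile normalization Atp5b (-0.13) and Atp5c1 (-0.31) had negative log2 fold changes. With mt-Co2 and Gm28661 left out of that scaling, these were 0.058 and 0.013.

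**Figure D4:**
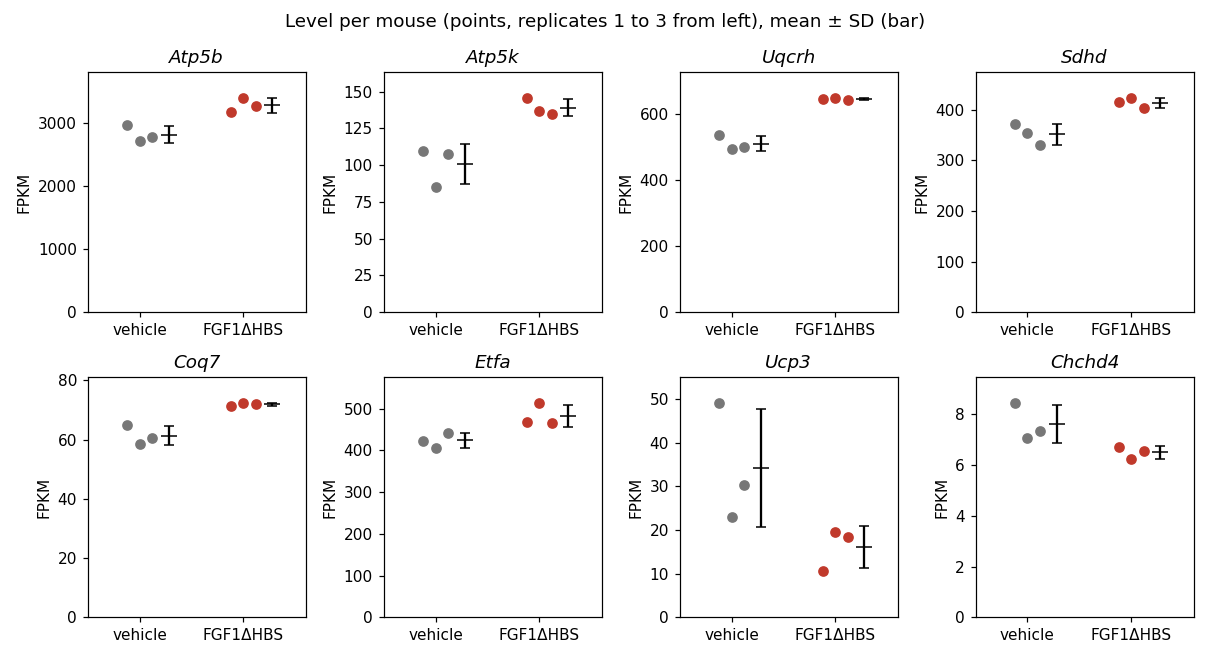
FPKM of 8 genes in each mouse (points, replicates 1 to 3 from left to right, vehicle in grey and FGF1ΔHBS in red) with the group mean and SD (bar, n = 3), on axes from 0. The treated points lie above all vehicle points in Atp5b, Atp5k, Uqcrh, Sdhd, Coq7 and Etfa and below them in Ucp3 and Chchd4.

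Promoters were looked up because the subunits of several complexes differed in the same direction. RefSeq promoters (GRCm38.p6, 250 bases before to 50 after the start site) were found for 35 of the 47 members, which have 40 promoters among 32851 in all. The letters GCGCANGCG, a core of the element bound by nuclear respiratory factor 1 (NRF1), a regulator of chain genes, were found on either strand in 10 of the 40 member promoters (25.0%) and in 6.25% of all promoters. Overlapping promoters of Ndufa5 hold the same match, which was counted for each. The motifs were chosen with the results known, a match is a description of these letters and not a site, and the letters of NRF1 are almost palindromic, so adjoining matches overlap. The genes with a match were Atp5c1, Atp5k, Chchd4, Coq8a, Etfdh, Ndufa5, Ndufs6, Sdhd and Slc25a3. They include 5 of the 10 members with a promoter that were higher at an unadjusted p under 0.05. They also include Etfdh and Slc25a3, not at that p, and Chchd4 and Coq8a, whose fold changes were negative. Whether NRF1 has a part in the differences was not tested.

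The matches in these 5 genes, and the ACTTCCGG of Uqcrh, are printed with their flanks, with the match in capitals, to show where the shared letters sit. All 6 genes are on the minus strand and are written in the direction of transcription. They lie at chr5:108434431-108434459 (Atp5k), chr9:50603910-50603938 (Sdhd), chr2:10080433-10080459 (Atp5c1), chr6:24527698-24527726 (Ndufa5), chr13:73328483-73328507 (Ndufs6) and chr4:116075071-116075091 (Uqcrh).
Atp5k: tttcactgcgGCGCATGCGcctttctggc
Sdhd: tcgctggggtGCGCACGCGcggtggcagc
Atp5c1: ctgagctcccGCGCACGCGcactgagt
Ndufa5: tgtgtgagctGCGCAGGCGcaaatctacc
Ndufs6: gactgctgtgCGCCTGCGCcggcac
Uqcrh: agtatgccgcACTTCCGGcca
The first base of the match lies 50 bases before the start site in Atp5k, 79 in Sdhd, 17 in Atp5c1, 15 in Ndufs6 and 11 in Uqcrh. Ndufa5 has 2 listed start sites and the match lies 190 or 26 bases before them.

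Of the other motifs searched on both strands, AAGATGGCG (YY1) was in 7 of the 40 member promoters (17.5%) and 1.4% of all. CCGGAAGT (GABPA, the letters of Uqcrh on the other strand) was in 3 (7.5%) and 3.89% of all. TCAAGGTCA (the estrogen-related receptors) was in only 1, of Sdhd (2.5%), and 0.423% of all, and GGGGCGGGG (SP1) in 2 (5.0%) and 11.4%. The YY1 letters lay in the promoters of Atp5j2, Coq9, Micu2, Ndufc1, Ndufs6, Ndufs7 and Slc25a3, of which Coq9 and Micu2 had negative fold changes. Only Atp5j2 and Ndufs6 of these were among the 10 higher members with a promoter.

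Among the genes that make ubiquinone, Coq7, the hydroxylase of a late step in ubiquinone synthesis, was at 65.1, 58.7 and 60.4 FPKM with vehicle and at 71.3, 72.3 and 72.1 FPKM with FGF1ΔHBS. The treated hearts were within 0.945 FPKM of each other and all above the vehicle hearts (log2 fold change 0.23, SE 0.063, adjusted p = 0.147). Coq8a, an atypical kinase of the same pathway, and Coq9, its lipid-binding protein, had log2 fold changes of -0.045 (95% interval -0.22 to 0.13) and -0.0097 (-0.20 to 0.18). The 3 genes of this pathway showed no common direction. The deposited loci of Coq8a and Coq9 also cover Cdc42bpa and Ciapin1, so their values may hold reads of those genes.

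Etfa, the alpha subunit of the electron transfer flavoprotein, had a log2 fold change of 0.19 (SE 0.075, adjusted p = 0.272) without overlap, at 406 to 443 FPKM against 465 to 514 FPKM. Etfdh, which hands its electrons to ubiquinone, was at 275 to 309 FPKM with vehicle and at 289 to 335 FPKM with treatment, and the groups overlapped (log2 fold change 0.10, 95% interval -0.094 to 0.29, adjusted p = 0.577). The deposited locus of Etfdh also overlaps 4930579G24Rik.

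The carriers did not share the direction of the subunits. Of 12 genes, Slc25a43 was at 0 to 0.342 FPKM and was not tested, and of the 11 tested 7 had positive and 4 negative fold changes, with a median of 0.022. Slc25a3, the phosphate carrier that supplies the ATP synthase and the most abundant carrier here, was at 1038, 1030 and 1051 FPKM with vehicle and at 1173, 1160 and 1111 FPKM with FGF1ΔHBS. It was 10.4% higher without overlap (log2 fold change 0.14, SE 0.072, adjusted p = 0.366). After quantile normalization its log2 fold change was -0.39, or -0.013 with mt-Co2 and Gm28661 left out. Slc25a5, an exchanger of ADP and ATP named after its values were seen, was at 199 to 210 FPKM and at 191 to 226 FPKM, with a log2 fold change of -0.018 (95% interval -0.21 to 0.17).

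Ucp3, an uncoupling protein of muscle and heart linked to fatty acid use, had the largest difference of all members other than mt-Co2. It was at 49.2, 22.9 and 30.3 FPKM with vehicle and at 10.7, 19.6 and 18.4 FPKM with FGF1ΔHBS, and its mean was 0.475 times that of vehicle. The groups did not overlap, but the nearest values were 22.9 and 19.6 FPKM and the vehicle hearts spread widely (log2 fold change -1.0, SE 0.31, adjusted p = 0.163). The deposited locus of Ucp3 begins 146253 bases before its annotation (chromosome 7, 100472990 to 100486432) and covers C2cd3 and Ppme1, so reads of those genes may be in its value. Slc25a51, the carrier of NAD into mitochondria, was at 20.9, 22.5 and 22.8 FPKM and at 20.8, 20.6 and 18.3 FPKM, a log2 fold change of -0.14 (SE 0.077, adjusted p = 0.4), with the nearest values almost level.

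Import genes were at low levels, 3 of the 4 had negative fold changes, and none was at an unadjusted p under 0.05. Chchd4, which folds imported proteins of the intermembrane space by forming disulfide bonds, was at 8.44, 7.05 and 7.34 FPKM with vehicle and at 6.72, 6.23 and 6.53 FPKM with FGF1ΔHBS, without overlap (log2 fold change -0.20, SE 0.089, adjusted p = 0.312). Timm9, a small chaperone of that space, was at 9.07, 9.52 and 9.19 FPKM and at 9.0, 8.01 and 7.51 FPKM (log2 fold change -0.16, SE 0.085, adjusted p = 0.375). Its deposited locus also covers Tomm20l, and its nearest values differ by 0.0715 FPKM.

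Timm8a1, another small chaperone and the import gene with the highest level, was at 11.6 to 13.8 FPKM with vehicle and at 12.2 to 14.7 FPKM with treatment (log2 fold change 0.065, 95% interval -0.16 to 0.29). The calcium gatekeeper Micu2, which holds the calcium uniporter shut at low calcium, was at 43.6, 45.5 and 40.9 FPKM and at 38.7, 39.9 and 39.6 FPKM, a log2 fold change of -0.13 without overlap (SE 0.065, adjusted p = 0.356). Chchd2, the most abundant of the CHCHD genes, was at 519 to 610 FPKM and at 586 to 614 FPKM with overlap (log2 fold change 0.12, or -0.072 after quantile normalization, adjusted p = 0.505), and its deposited locus covers Phkg1, Sumf2 and Zbed5.

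Over the members, genes at higher levels and with shorter transcripts had the more positive fold changes. Across the 45 tested genes other than mt-Co2, Spearman's rho of the log2 fold change was 0.575 with mean FPKM and -0.516 with transcript length, and -0.060 with GC content. Over all genes tested the values were 0.065, -0.144 and -0.222. These are descriptions across genes of the same 6 libraries, which are not independent replicates. The nuclear-encoded subunits had a median transcript of 875 bases, against 3338 bases for all genes tested, so level, length and role cannot be told apart in this set.

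**Figure D5:**
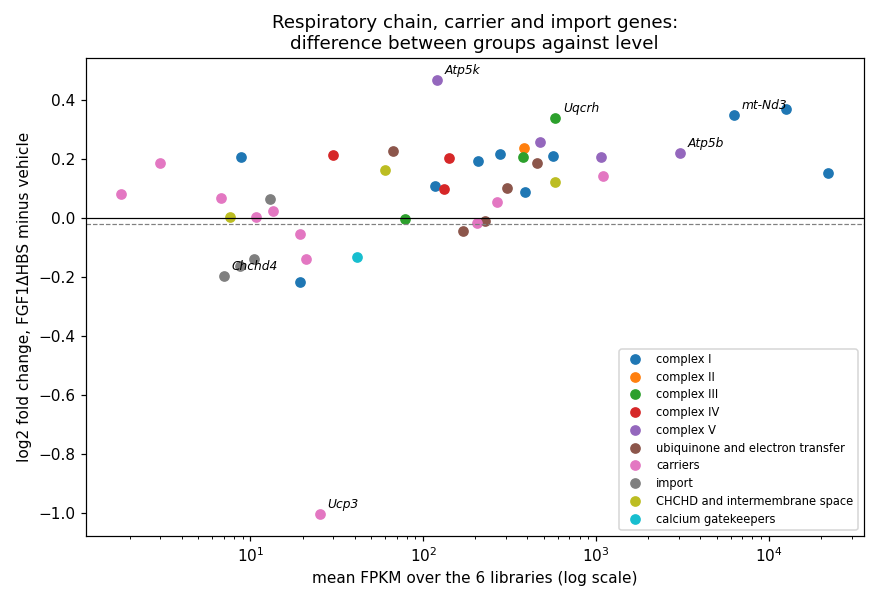
Log2 fold change (FGF1ΔHBS minus vehicle) against the mean FPKM over the 6 libraries, on a log axis, for the 45 tested genes other than mt-Co2, coloured by role; the dashed line is the median of all genes tested. The genes at the highest levels lie above 0, and the negative values other than Ucp3 are between -0.22 and 0.

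Other mitochondrial genes came from lists of 118 symbols, of which 8 were in the table. The only one at an unadjusted p under 0.05 (12.5% of the 8, beside 17.1% of all genes) was Dld, the dihydrolipoamide dehydrogenase shared by the pyruvate and oxoglutarate dehydrogenase complexes. It was at 181, 194 and 211 FPKM with vehicle and at 235, 232 and 220 FPKM with treatment, without overlap (log2 fold change 0.23, SE 0.077, adjusted p = 0.19). The 3 genes of biogenesis and mitochondrial DNA upkeep, Esrrg, Mgme1 and Mterf1a, had log2 fold changes of 0.17, 0.21 and 0.033 with overlapping groups. The 3 of mitochondrial fusion and fission, Mfn2, Mief2 and Stoml2, had values of -0.021, -0.0030 and 0.060. Pmpca, a subunit of the peptidase that cleaves the targeting peptide of imported proteins, was at 0.057 (95% interval -0.19 to 0.30).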

How the data were processed

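Poly(A) RNA of heart tissue was sequenced, 3 mice a group. The deposited table holds FPKM per gene that the authors made; their processing notes name Bowtie 0.12.2, HISAT2 2.0 and StringTie 1.3.0. Its coordinates match GENCODE M21 on GRCm38 for 4111 of 4132 genes, while the notes name mm8. Read depth is unknown. The sources differ on single or paired reads and on the sequencer.

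Groups were compared by limma 3.58.1 (R 4.3.3; empirical Bayes with a trend) on log2(FPKM + 1), over genes that averaged 1 FPKM or more, which understates the change of low genes, at an adjusted p of 0.05. Benjamini-Hochberg adjustment was over all 2041 genes, and the fit was tested on simulated data. Single sums used a two-sided exact permutation test, whose smallest p is 0.1. Each library is of 1 mouse, and p-values set the difference between groups against the spread between 3 mice a group. In limma the spread of each gene is drawn towards a trend over all genes tested. Alternatives were 3 scalings, a pseudocount of 0.1, no filter or a mean of 5 FPKM, 2 variance models, the replicate number as a block, a GC correction and each library left out. A further quantile normalization without mt-Co2 and Gm28661 was chosen after seeing the data.

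Genes named were the mitochondrially encoded ones, the electron transfer and uncoupling genes of the paper, and the most abundant member of each role. Named too were the 8 higher and the 8 lower members of smallest p whose groups did not overlap (6 lower existed). Heart and non-heart paralogue pairs were also planned, but no pair had both genes among the members. Any other member in the text was named after its values were seen. Members, roles, lists, motifs and named genes were chosen with earlier results of these data known.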

Additional observations from a re-analysis of the deposited data

How the results depend on the processing

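No member passed the adjusted threshold under any of the 17 alternatives. The genes past it, 2 in the report, were 1 under median ratio scaling, quantile normalization (with or without mt-Co2 and Gm28661), nuclear total scaling, the GC correction and a variance model without trend, 4 with a pseudocount of 0.1, 5 with the robust model, 0 without a filter on low values (488 at an unadjusted p under 0.05), and 0 to 82 with 1 library left out, the 82 without vehicle replicate 3. Members at an unadjusted p under 0.05, 14 in the report, were 7 under quantile normalization, 9 under it without mt-Co2 and Gm28661, 9 under nuclear total scaling, and 6 to 17 with 1 library left out. Over all genes, 349 in the report, the counts were 353, 363 and 356 under those scalings and 231 to 494 with 1 library left out. The median log2 fold change of the members, 0.12, was 0.037 under quantile normalization, 0.052 without those 2 genes, 0.071 under nuclear total scaling, and 0.092 to 0.15 with 1 library left out. The cause was not tested.

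Quantile normalization gave log2 fold changes of -0.24 for mt-Nd2, -0.30 for mt-Nd3, -0.44 for mt-Nd5, -0.31 for Atp5c1, -0.13 for Atp5b, -0.39 for Slc25a3 and -0.072 for Chchd2. It ranks genes within a library, and the 2 genes at 0 in vehicle replicate 2 are among the highest elsewhere, so genes that rank below them elsewhere move up in rank there. Without mt-Co2 and Gm28661 it gave -0.013 for Slc25a3, -0.035 for Chchd2, 0 for mt-Nd2 and mt-Nd5, and 0.12, 0.058 and 0.013 for mt-Nd3, Atp5b and Atp5c1. Timm8a1 was at -0.0043 without FGF1ΔHBS replicate 1 and at most at 0.13 with another library left out. The summed mt-Nd2, mt-Nd3 and mt-Nd5 were 1.11 to 1.25 times higher with 1 library left out, 1.14 relative to the nuclear sum and 1.295 with mt-Co2, a sum that takes its 0 in vehicle replicate 2 as a level and is not to be read as a fold change.

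Over all genes, 145 of 349 calls at an unadjusted p under 0.05 were higher, against 95 of 356 under nuclear total scaling and 191 of 352 under the GC correction. Replicate numbers did not pair the mice, the correlations of same-numbered mice being -0.0078, -0.16 and -0.22. With the replicate number as a block, 0 genes passed the threshold (269 at an unadjusted p under 0.05), and 7 members, 5 of them nuclear-encoded subunits, were at an unadjusted p under 0.05. With 3 mice a group and an unknown depth, differences of the size seen in most members could not be separated from the spread after adjustment.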

Other observations

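mt-Rnr1, the mitochondrial small ribosomal RNA, was at 2627, 2016 and 2629 FPKM with vehicle and at 2494, 2604 and 2431 FPKM with FGF1ΔHBS, so vehicle replicate 2 was the lowest and the groups overlapped (log2 fold change 0.060, adjusted p = 0.853 by limma). The ratio of mt-Nd5 to mt-Nd2 was 0.474, 0.552 and 0.561 with vehicle and 0.605, 0.589 and 0.643 with FGF1ΔHBS, without overlap (two-sided exact permutation p = 0.1, the smallest possible), while that of mt-Nd3 to mt-Nd2 overlapped (exact permutation p = 0.5). Neither ratio was planned before the values were seen.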
